A study of Mus musculus with 16 samples.

Results

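*Rgs5*, *Pdgfrb*, *Cspg4*, *Cd248*, *Acta2*, *Myh11*, *Tagln*, *Pecam1*, *Cldn5* and *Kdr* are 10 genes of blood vessel walls, and they were read in RNA-seq counts of sorted sensory neurons from 4 kinds of mouse ganglion. They are 4 pericyte genes, 3 smooth muscle genes and 3 endothelial genes out of 22609 gene symbols counted. The genes were selected on their counts and CPM (the count scaled to all reads on genes of the library) in these same 16 libraries, so their levels and differences between ganglia are given below as a description, with no test. The tests are on 61 other genes of the same cell types. Their lists too were chosen with earlier results of these data known, so they are not an independent set.

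There were 4 libraries each from trigeminal ganglia (TG), ganglia labelled as nodose tissue (NG/JG, the nodose and jugular ganglia), lumbar L3-L5 dorsal root ganglia (L3-L5 DRG) and thoracolumbar T10-L1 DRG. All came from untreated animals labelled male and C57BL/6J, aged 8 to 12 weeks. They carried a Pirt cre/- allele and a Rosa26 LSL-tdTomato/+ allele, so that the red protein TdTomato marks cells in which Cre was made under *Pirt*, a gene of sensory neurons, and this holds for all 4 groups. Left and right ganglia were taken whole after perfusion with phosphate buffer and dissociated with liberase and dispase. Live, single cells bright in TdTomato were then sorted in a pair of cycles through a 100 µm nozzle, and the labels call them Pirt1+ neurons. Nothing in the labels ties a library to an animal or says how many animals it pooled, so p-values measure the spread between libraries, which may be technical.

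Capillaries are tubes of endothelial cells wrapped by pericytes, and arterioles carry smooth muscle around the endothelium. Pericytes and smooth muscle are together called mural cells. Endothelial PDGF-B recruits mural cells through their receptor PDGFRB, and VEGF acts on endothelium through KDR. Sensory ganglia have a dense capillary bed around the neuron cell bodies.

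The bases before the transcription start are shown for *Acta2* and *Rgs5*, which rose and fell together over the libraries, and for *Kdr*, which followed them less closely. The RefSeq promoter table (build GRCm38.p6, which is not the build of the counts) held 5 of the 10 genes, *Rgs5*, *Cspg4*, *Acta2*, *Cldn5* and *Kdr*, and it held no entry for *Pdgfrb*, *Cd248*, *Myh11*, *Tagln* or *Pecam1*. Each run is the 250 bases before the start site, 5′ to 3′ on the strand of the gene, at chr19:34255374-34255623 (minus strand) for *Acta2*, chr1:169655251-169655500 (plus strand) for *Rgs5* and chr5:75978456-75978705 (minus strand) for *Kdr*. Capitals mark the motifs described after the sequences.
Acta2: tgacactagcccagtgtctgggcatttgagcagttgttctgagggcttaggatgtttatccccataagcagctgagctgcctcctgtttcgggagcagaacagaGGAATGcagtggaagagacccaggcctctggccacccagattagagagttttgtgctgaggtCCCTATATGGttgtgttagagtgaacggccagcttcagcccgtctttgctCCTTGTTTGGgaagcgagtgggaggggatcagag
Rgs5: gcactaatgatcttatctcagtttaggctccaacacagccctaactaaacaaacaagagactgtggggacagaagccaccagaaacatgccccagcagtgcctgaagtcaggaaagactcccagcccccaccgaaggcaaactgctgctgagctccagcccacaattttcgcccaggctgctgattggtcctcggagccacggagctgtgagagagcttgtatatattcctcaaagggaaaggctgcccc
Kdr: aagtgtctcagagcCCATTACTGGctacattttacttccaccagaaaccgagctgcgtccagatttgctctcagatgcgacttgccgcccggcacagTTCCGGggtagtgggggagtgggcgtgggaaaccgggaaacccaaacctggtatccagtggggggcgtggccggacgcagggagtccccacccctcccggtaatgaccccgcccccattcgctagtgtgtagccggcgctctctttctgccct
A CArG box is the element that serum response factor binds in smooth muscle genes, CC and GG around a core of 6 A or T bases. That strict form was in 1.47% of 32851 promoters and in 0 of the 5 here. A looser form with 1 base other than A or T in the core, searched after the strict form had given no match, was in 7.24% of all promoters and in those of *Acta2* and *Kdr*. In *Acta2* it began 84 and 34 bases before the start site, and in *Kdr* 236 bases before it. The MCAT element CATTCC, on either strand, was in 12.6% of promoters and here in that of *Acta2* alone. The ETS core CCGGAA, on either strand, was in 12% of promoters and here in that of *Kdr* alone. None of these matches overlapped another, and a match describes letters in this window and not a bound site.

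On mm9, the build of the counts, the pericyte genes lie at chr1:171585632-171625944 (*Rgs5*), chr18:61204804-61244715 (*Pdgfrb*), chr9:56712911-56747677 (*Cspg4*) and chr19:5068078-5070637 (*Cd248*). The smooth muscle genes lie at chr19:34315580-34329826 (*Acta2*), chr16:14194620-14291501 (*Myh11*) and chr9:45737711-45744141 (*Tagln*), and the endothelial genes at chr11:106515531-106611942 (*Pecam1*), chr16:18776940-18778353 (*Cldn5*) and chr5:76328852-76374483 (*Kdr*). *Tagln* was the only one of the 10 whose exons overlapped another counted gene. It shared 4.1% of its exon length with *Pcsk7* on the other strand, and *Pcsk7* was at 5.09 to 81.7 CPM.

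Libraries had 4735624 to 13333318 reads on genes, so that 3 counts, the floor used here, were 0.225 to 0.6335 CPM. Without molecular identifiers on the reads, intervals and floors hold for counting error alone. L3-L5 DRG library 4 stood apart with the fewest reads on genes and with 66.6% of its unique reads outside genes, against 29.6% in the lowest library. No pair of libraries of a ganglion had counts within sampling noise (chi-square of 29.9 to 375 per gene), and TG library 1 stood apart from the other TG libraries (214 to 233, against 29.9 to 33.3 among those). All 10 listed sensory neuron genes, *Pirt* included, were above the floor in all 16 libraries, with a summed level of 947 to 11340 CPM. The 6 listed Schwann cell genes summed to 8169 to 54670 CPM and the 6 satellite glia genes to 13020 to 64260 CPM, so glial RNA was present in every library. *Xist*, the RNA of the inactive X chromosome, had 1279 to 8362 reads in the 16 libraries and 13 genes of chromosome Y had 0, which goes against the label male. The labels name no batch.

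Together the 10 genes held between 0.00587% (L3-L5 DRG library 2) and 0.201% (L3-L5 DRG library 4) of the reads on genes. In bulk samples such as these, fewer cells of a type and less RNA per cell cannot be told apart. Their summed level was highest on average in T10-L1 DRG and lowest in NG/JG, with a median of 866 CPM (480 to 1646) for T10-L1 DRG, 256 (58.7 to 2008) for L3-L5 DRG, 525 (124 to 867) for TG and 230 (134 to 369) for NG/JG. The T10-L1 DRG libraries were all above the NG/JG libraries, and the other ranges overlapped. In T10-L1 DRG 9 or 10 of the genes were above the floor in each library, in NG/JG 2 to 6.

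*Rgs5*, a regulator of G protein signalling that is among the strongest pericyte markers, was high in T10-L1 DRG and near 0 in NG/JG. The T10-L1 DRG libraries 1 to 4 had 258, 90.4, 89.5 and 189 CPM, from 1686, 950, 1089 and 2517 reads. The TG libraries had 19.8, 47.0, 17.9 and 33.5 CPM and the L3-L5 DRG libraries 53.9, 0.199, 25.2 and 216. The NG/JG libraries had 1, 2, 1 and 1 reads, which is within the floor. T10-L1 DRG was thus above TG and TG above NG/JG without overlap, whereas L3-L5 DRG ran across all of these levels because its library 2 had 2 reads. The order of the means was T10-L1 DRG (157 ± 81.9, SD, n = 4), L3-L5 DRG (73.8 ± 97.3), TG (29.6 ± 13.6) and NG/JG (0.152 ± 0.0530), and L3-L5 DRG did not differ from its neighbours beyond its spread.

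*Cd248*, which encodes endosialin, a surface protein of pericytes and of some fibroblasts, had the same order at lower levels. Its CPM was 35.6, 12.5, 21.6 and 44.4 in T10-L1 DRG, 0.254, 6.89, 6.19 and 5.97 in TG, and 10.6, 0, 0.165 and 13.7 in L3-L5 DRG. In NG/JG 1 read was counted over the 4 libraries. T10-L1 DRG lay above TG and NG/JG in every library. The TG libraries also lay above those of NG/JG, but TG library 1 had 2 reads and was itself within the floor.

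*Pdgfrb*, the PDGF-B receptor, and *Cspg4*, the NG2 proteoglycan that is also made by oligodendrocyte precursors and some glia, did not follow *Rgs5* into NG/JG. *Pdgfrb* was at 21.0, 102, 30.3 and 0 CPM in the NG/JG libraries. It was at 42.7, 43.5, 36.1 and 43.5 in TG, 38.9, 19.4, 48.9 and 72.9 in L3-L5 DRG, and 78.1, 30.0, 70.4 and 91.5 in T10-L1 DRG. The ranges of all 4 ganglia overlapped, and the 4 TG libraries were alike, with an SD of 3.60 around a mean of 41.4. *Cspg4* was at 20.7, 67.8, 15.8 and 0.310 CPM in NG/JG and at 0.254, 34.8, 24.4 and 24.6 in TG. It was at 27.2, 25.01, 7.66 and 76.4 in L3-L5 DRG and 87.9, 48.8, 50.4 and 33.5 in T10-L1 DRG. NG/JG library 2 thus had more reads on *Pdgfrb* (900) and *Cspg4* (596) than any TG library, with 2 reads on *Rgs5*.

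Of the smooth muscle genes, *Acta2* and *Myh11* were near 0 in NG/JG and *Tagln* was not. *Acta2* encodes the smooth muscle actin that also marks some pericytes and activated fibroblasts. The NG/JG libraries had 0, 2, 7 and 3 reads on it. In CPM it was at 462, 208, 46.0 and 308 in T10-L1 DRG, 0.381, 213, 79.2 and 173 in TG and 61.1, 0.397, 0.577 and 485 in L3-L5 DRG. T10-L1 DRG lay above NG/JG in every library, while TG and L3-L5 DRG each had libraries within the range of NG/JG.

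*Myh11*, the heavy chain of smooth muscle myosin and the most specific of the 3, had 1, 0, 0 and 0 reads in NG/JG. It was at 139, 56.7, 0.164 and 117 CPM in T10-L1 DRG and at 4.18, 0.0993, 0.0824 and 132 in L3-L5 DRG. In TG it was at 0, 11.02, 1.37 and 7.20 CPM. T10-L1 DRG library 3 had 2 reads on *Myh11* beside 559 on *Acta2*, 363 on *Tagln* and 1089 on *Rgs5*.

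*Tagln*, which encodes the actin binding protein SM22, was at 91.7, 65.1, 19.2 and 124 CPM in NG/JG, with 139 to 1199 reads. It was at 213, 109, 29.8 and 161 in T10-L1 DRG, 66.8, 6.65, 15.7 and 287 in L3-L5 DRG, and 0, 113, 55.7 and 111 in TG. The ranges of all 4 ganglia overlapped, with means of 74.98 ± 44.3 in NG/JG, 128 ± 78.1 in T10-L1 DRG, 94.0 ± 131 in L3-L5 DRG and 70.0 ± 53.8 in TG. Per length, *Tagln* had 47.3 ± 27.9 RPKM in NG/JG, where *Acta2* had 0.211 ± 0.233, while in T10-L1 DRG *Acta2* (144 ± 98.0 RPKM) exceeded *Tagln* (80.9 ± 49.2) on average.

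The 3 endothelial genes did not agree on which ganglion was highest. *Cldn5*, the claudin of endothelial tight junctions, had its highest mean in TG, *Pecam1*, the adhesion molecule CD31 that platelets and leukocytes also carry, in L3-L5 DRG, and *Kdr*, the main VEGF receptor, in T10-L1 DRG. *Cldn5* was above the floor in all 16 libraries. It was at 7.74, 382, 225 and 186 CPM in TG and 95.3, 40.7, 49.6 and 58.8 in NG/JG. It was at 63.8, 6.75, 18.3 and 516 in L3-L5 DRG and 271, 49.7, 109 and 74.0 in T10-L1 DRG. Per length it was the most abundant endothelial gene of the 3, at 43.2 ± 16.9 RPKM in NG/JG and 142 ± 109 in TG, against a highest mean of 12.2 ± 16.6 for *Pecam1* and 2.90 ± 0.929 for *Kdr*.

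*Pecam1* was uneven between libraries outside T10-L1 DRG. In NG/JG library 1 had 836 reads and the other 3 had 1, 0 and 1. In TG library 1 had 52.4 CPM against 4.13, 4.81 and 0.176 in the others, and the L3-L5 DRG libraries had 25.1, 0.199, 27.1 and 159. The T10-L1 DRG libraries were close to one another, with 431 to 494 reads each and 75.5, 42.8, 35.4 and 33.8 CPM.

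*Kdr* was at 26.4, 18.7, 26.7 and 12.7 CPM in T10-L1 DRG, above all TG libraries (0, 11.02, 8.59 and 4.74). It was at 23.8, 0, 17.6 and 0.103 in NG/JG and 13.5, 0, 3.13 and 49.4 in L3-L5 DRG. NG/JG libraries 2 and 4, at or near 0 in *Kdr* and *Pecam1*, kept 358 and 569 reads on *Cldn5*.

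**Figure D1:**
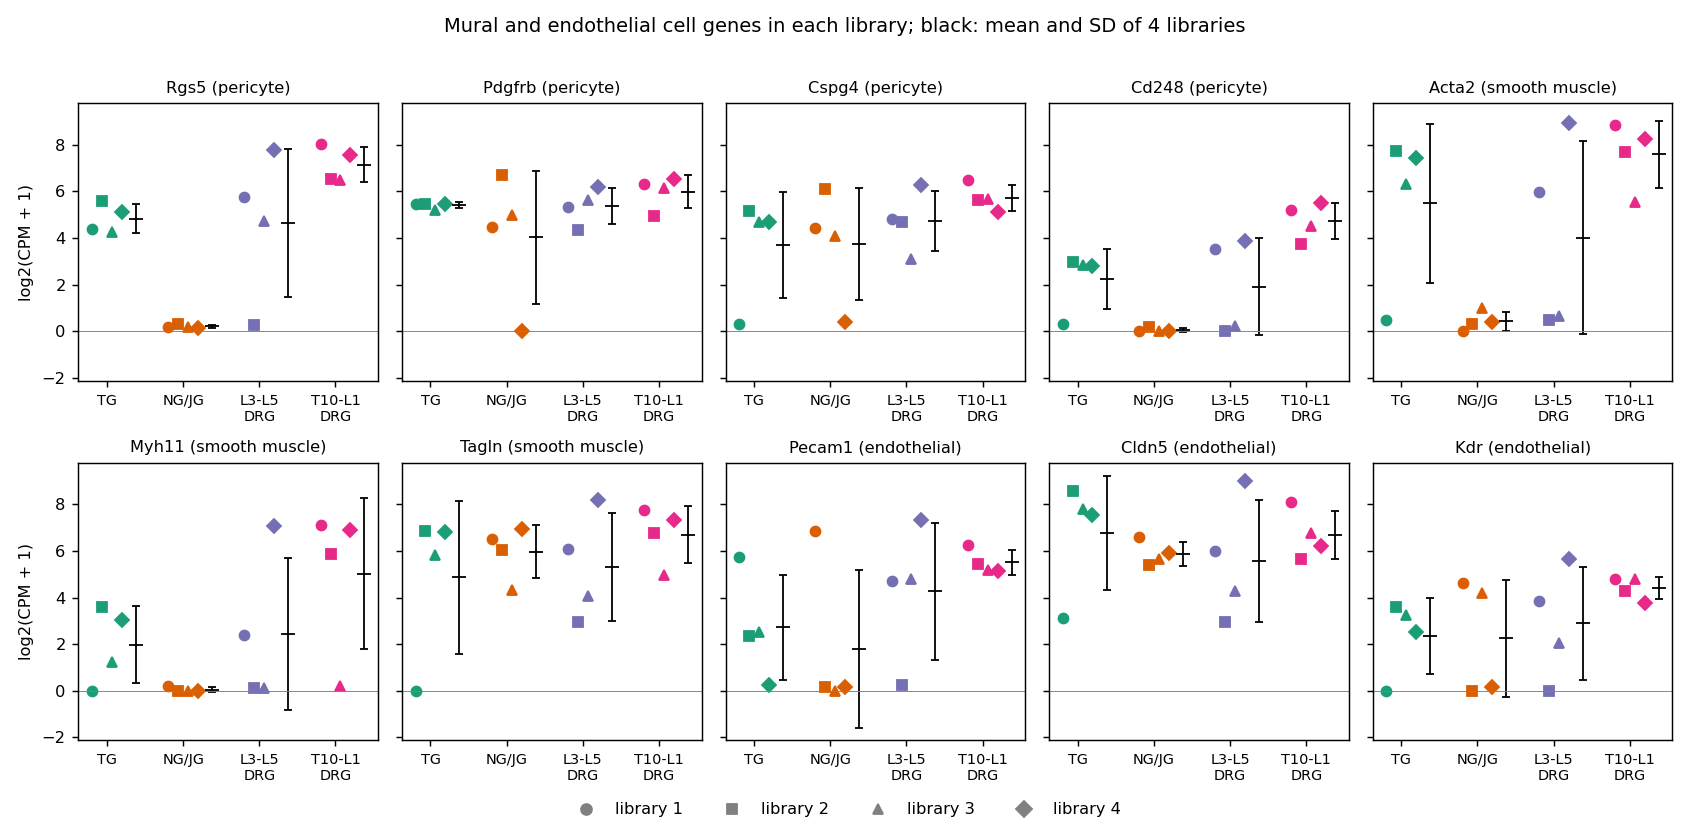
Level of each gene, as log2(CPM + 1), in the 4 libraries of each ganglion; black marks are the mean and SD of log2(CPM + 1) over 4 libraries. *Rgs5*, *Cd248*, *Acta2* and *Myh11* sit at or near 0 in all NG/JG libraries, while *Tagln* and *Cldn5* do not.

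Several libraries lacked some vessel genes and not others. TG library 1 had 3 reads on *Acta2*, 2 on *Cspg4* and on *Cd248* and 0 on *Tagln*, *Myh11* and *Kdr*, beside 156 on *Rgs5*, 336 on *Pdgfrb* and the highest *Pecam1* of the TG libraries (413 reads). TG libraries 2 to 4 had 1062 to 1941 reads on *Cldn5* with 1 to 28 on *Pecam1*. In L3-L5 DRG library 2 held 195 reads on *Pdgfrb* and 252 on *Cspg4* with 2 on *Rgs5*, 4 on *Acta2* and 0 on *Cd248* and *Kdr*. Library 3 had 306 reads on *Rgs5* with 7 on *Acta2* and 1 on *Myh11*, and library 4 was the highest L3-L5 DRG library for all 10 genes in CPM.

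Over the 16 libraries the genes fell into a tight set and a loose remainder. *Rgs5*, *Cd248*, *Acta2* and *Myh11* had Spearman rho of 0.82 to 0.95 (Pearson r of 0.78 to 0.94 on log2(CPM + 1)) in their 6 pairs, with *Rgs5* and *Cd248* the closest pair. *Tagln* was closer to *Cldn5* and *Myh11* (rho 0.73 and 0.72) than to *Acta2* (0.62), and *Pdgfrb* had 0.29 with *Tagln* and 0.18 with *Kdr*. The 3 endothelial pairs had 0.33 to 0.65, and the 21 pairs of a mural with an endothelial gene had 0.18 to 0.73 (median 0.53). These values describe points that share a library, its depth and its ganglion, and the low libraries of NG/JG enter each of them.

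**Figure D2:**
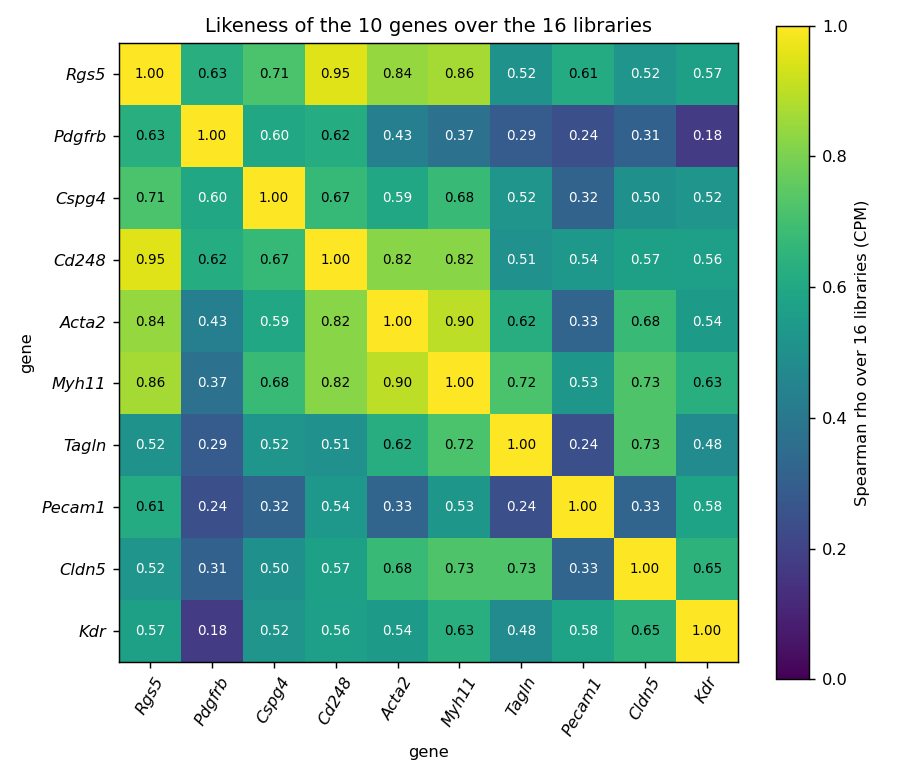
Spearman rho of CPM over the 16 libraries for each pair of the 10 genes, from 0 (dark) to 1 (yellow). *Rgs5*, *Cd248*, *Acta2* and *Myh11* form the brightest block apart from the diagonal, with rho of 0.82 to 0.95.

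The summed level of the 7 mural genes varied between libraries, as did that of other lists. It spanned 308 to 1273 CPM for T10-L1 DRG, 51.7 to 1283 for L3-L5 DRG, 63.3 to 470 for TG and 66.3 to 236 for NG/JG. L3-L5 DRG libraries 2 and 3, low in mural genes (51.7 and 98.2 CPM), had the highest sums of sensory neuron genes of all 16 libraries (9797 and 11340 CPM). L3-L5 DRG library 4, the highest in both mural and endothelial genes (1283 and 724 CPM), had 1362 CPM of sensory neuron genes and 46810 of Schwann cell genes, and TG library 1, the lowest TG library in both, had the lowest sensory neuron sum (947 CPM) and the highest Schwann cell sum (54670). The 6 neutrophil genes were all above the floor in each T10-L1 DRG library (79.2 to 1036 CPM) and 0 to 3 of them in each NG/JG library (0.341 to 31.9 CPM), and spanned 0 to 40.7 CPM for TG and 5.06 to 535 for L3-L5 DRG.
The 10 fibroblast genes summed to 530 to 4143 CPM for NG/JG, 5184 to 7870 for TG, 713 to 7392 for L3-L5 DRG and 4142 to 13490 for T10-L1 DRG, with 7 to 10 above the floor in each library. The 8 macrophage genes summed to 22.8 to 3991 CPM for NG/JG, 2698 to 9635 for TG, 96.1 to 7407 for L3-L5 DRG and 907 to 19640 for T10-L1 DRG. Of the 5 red cell genes, the globin genes were at 0 in every library and *Alas2* was not. *Alas2* spanned 10.2 to 36.4 CPM for TG, 0 to 7.39 for L3-L5 DRG and 2.665 to 7.49 for T10-L1 DRG. The NG/JG libraries together held 1 read on it. The globin counts alone thus do not show that red cell RNA was absent. The part of these cell types in the levels of the vessel genes was not tested.

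**Figure D3:**
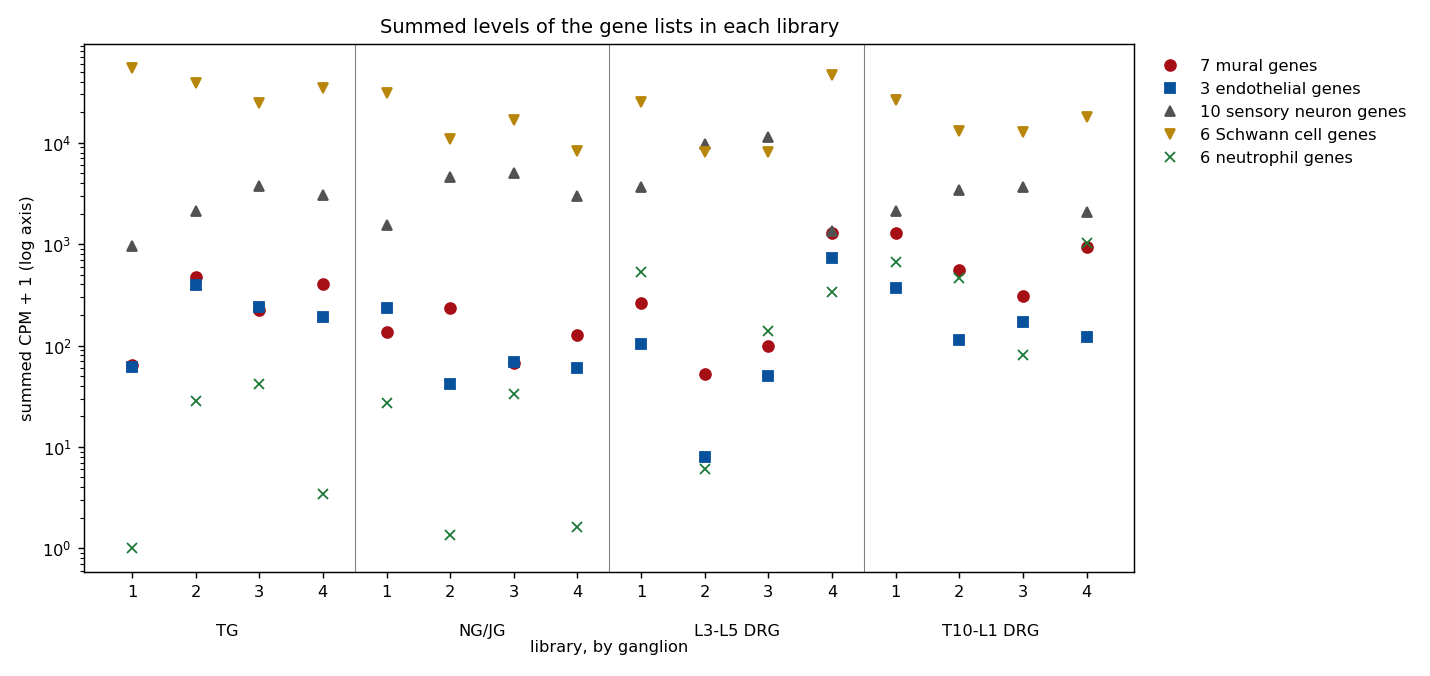
Summed CPM + 1 (log axis) of the 7 mural genes, the 3 endothelial genes and the listed sensory neuron, Schwann cell and neutrophil genes in each library, by ganglion. The mural sum is 308 to 1273 CPM in T10-L1 DRG, against 66.3 to 236 for NG/JG, while L3-L5 DRG runs from 51.7 in library 2 to 1283 in library 4.

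For the tests, 18 further pericyte, 12 further smooth muscle and 31 further endothelial genes were taken from lists. These lists were chosen with earlier results of these data known, which limits what the p-values and shares below can show. Genes with few reads were left out by edgeR's filter, and a fit on the 8 libraries of each pair of ganglia gave the p-values, from the quasi-likelihood test of edgeR. The comparisons with NG/JG share its 4 libraries, those with TG share the TG libraries, and so on, so they are not independent of one another.

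In T10-L1 DRG against NG/JG, *Acta2* was 9.31 higher on the log2 scale (SE 1.14). For genes with 3 reads or fewer in each NG/JG library, the ratio of pooled reads, scaled by library totals, stands in place of a fitted change, with its 95% exact interval: 965 for *Rgs5* (413 to 2970), 942 for *Cd248* (169 to 37200) and 2380 for *Myh11* (426 to 93900). The log2 differences of the other 6 were 0.63 to 1.04 with SEs of 0.58 to 1.93. The CPM of 4 (*Rgs5*, *Cd248*, *Acta2* and *Myh11*) did not overlap between the ganglia, against 6.79% of all genes with T10-L1 DRG higher. For *Myh11* the lowest T10-L1 DRG library had 2 reads and the highest NG/JG library 1, both within the floor.

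Of the 61 further genes 51 were tested in this comparison and 0 passed the adjusted p by edgeR (0.0322% of all genes). Without adjustment 9 (4 pericyte, 3 smooth muscle and 2 endothelial genes) had a p under 0.05, all higher in T10-L1 DRG (5.91% of all genes, in either direction), and DESeq2 called 13, all higher (6.3% of all genes). Of the 9, *Gucy1a1*, *Higd1b*, *Ndufa4l2*, *Cnn1*, *Kcnmb1* and *Clec14a* had 3 reads or fewer in each NG/JG library and passed the filter only through T10-L1 DRG, which fixed their direction. *Notch3* and *Sox18*, with at most 4 and 7 reads in an NG/JG library, passed it in the same way. For *Synpo2* all but 1 NG/JG library had 2 reads or fewer. Libraries did not overlap for 11 of 61, all higher in T10-L1 DRG, against 6.79% of all genes. The median log2 difference of the 51 that passed the filter was 1.16, against -0.02 for all genes. The 51 include the genes that passed through T10-L1 DRG alone. Of the genes with a p under 0.05, chosen here after their values were seen, NG/JG had 0 to 4 reads a library for *Notch3* (the Notch receptor of mural cells, 37.6 CPM in T10-L1 DRG, adjusted p = 0.115 by edgeR) and 0 or 1 for *Gucy1a1* (a subunit of the nitric oxide receptor, 67.1 CPM, adjusted p = 0.0711). *Synpo2*, an actin binding protein of muscle, had 0, 1, 17 and 2 reads in NG/JG (153 to 336 in T10-L1 DRG), and *Sox18*, an endothelial transcription factor, 0, 0, 0 and 7 (18 to 97). Genes with the highest levels per length were not near 0 in NG/JG: *Mcam*, an adhesion molecule of mural and endothelial cells, was at 170 to 414 CPM in NG/JG and 86.1 to 273 in T10-L1 DRG, *Itm2a* at 202 to 309 and 205 to 398, and *Smtn* at 117 to 542 and 143 to 330.

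In L3-L5 DRG against the same NG/JG libraries the filter kept 6 of the 10 genes, and it left out *Rgs5*, *Cd248*, *Acta2* and *Myh11*, the 4 that were near 0 in NG/JG and in L3-L5 DRG library 2. Their pooled ratios were 333 for *Rgs5* (142 to 1030), 155 for *Cd248* (27.5 to 6180) and 592 for *Myh11* (106 to 23400), and *Acta2* had 2938 reads against 12. These intervals hold for counting error and not for the spread between libraries. L3-L5 DRG library 4 alone had 625 reads on *Myh11*, and the libraries of all 10 genes overlapped between the ganglia. The 6 that were fitted differed by 0.12 to 1.14 with SEs of 1.04 to 2.19. Of 41 further genes tested 0 were called by edgeR (0.0% of all genes), 2 had an unadjusted p under 0.05 (6.04% of all genes), *Kcnmb1* higher (it passed the filter through L3-L5 DRG alone) and *Mcam* lower, and DESeq2 called 6, all higher (5.67% of all genes). Of the 61 genes *Kcnmb1*, a subunit of the calcium-activated potassium channel of smooth muscle, was the only one whose libraries did not overlap (5.15% of all genes, L3-L5 DRG higher). Its CPM was 56.0, 127, 153 and 6.55 in L3-L5 DRG, with the highest values in the libraries that had the fewest reads on *Acta2*.

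TG against NG/JG gave a mixed picture. *Rgs5* had a pooled ratio of 185 (79.1 to 573), *Cd248* of 144 (25.3 to 5730) and *Myh11* of 141 (24.8 to 5620), and *Acta2* had 2535 reads against 12. *Cldn5* was 1.95 higher on the log2 scale (SE 0.84), *Pecam1* -0.82 (SE 2.22) and *Kdr* -0.47 (SE 2.09). The libraries of *Rgs5* and *Cd248* did not overlap (4.66% of all genes, TG higher).

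Of 42 further genes tested 0 passed the adjusted p by edgeR (0.051% of all genes). Unadjusted, 4 were higher and 2 lower in TG (10% of all genes in either direction), where *Kcnmb1* and *Foxs1* passed the filter through TG alone, and DESeq2 called 7 higher and 2 lower (6.39% of all genes). *Kcnj8* (2 reads in TG library 1), *Foxs1* and *Kcnmb1* had TG libraries wholly above those of NG/JG, 3 of 61 against 4.66% of all genes. *Mcam* (37.95 to 80.6 CPM in TG) and *Eng*, which encodes the endothelial TGF-beta co-receptor endoglin (14.8 to 32.4 CPM in TG and 43.5 to 140 in NG/JG), lay wholly below, 2 of 61 against 3.29% of all genes. Both counts were near those shares. The median log2 difference of the further genes was 0.1, against -0.05 for all genes.

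T10-L1 DRG against TG was the comparison in which edgeR called further genes, 1 higher and 1 lower of 56 tested. That was not above the 5.87% called over all genes. *Eng* was higher in T10-L1 DRG, with 145, 66.6, 112 and 101 CPM against 32.4, 25.97, 14.8 and 25.1 in TG, a log2 difference of 1.77 (SE 0.38, adjusted p = 0.0328 by edgeR). *Ramp2*, a partner of the adrenomedullin receptor of endothelium, was lower, with 110, 44.3, 52.9 and 48.1 CPM against 89.5, 164, 206 and 139, a difference of -1.62 (SE 0.42, adjusted p = 0.049). *Ramp2* shares 33.41% of its exon length with *Vps25* on the same strand, so its reads are uncertain. Both calls were lost when all 16 libraries were fitted together (adjusted p = 0.381 and 0.223), with the replicate number as a block (0.104 and 0.145), and without any T10-L1 DRG library or without TG library 2, 3 or 4 (0.0651 to 0.116 and 0.0744 to 0.155), and that of *Ramp2* also with no filter on low counts (0.0894). Without TG library 1, the library that stood apart, 13 further genes were called.

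Among the 56 further genes tested here, 10 were higher and 2 lower at an unadjusted p under 0.05 (21.6% of all genes in either direction), 1 was higher and 1 lower after adjustment (5.87%), and DESeq2 called 7 higher and 1 lower (15.4%). None of these counts was above its share of all genes. *Cnn1*, among the 10, had 0, 0, 7 and 0 reads in TG and passed the filter only through T10-L1 DRG, which fixed its direction. Libraries did not overlap for 13 of 61, all higher in T10-L1 DRG, against 10.3% of all genes. Endothelial genes were 7 of the 13, near their part of the list (31 of 61). The 7 were *Tek*, *Flt1*, *Eng*, *Plvap*, *Adgrf5* (counted as *Gpr116*), *Ptprb* and *Aqp1*. *Aqp1*, the water channel of vessel walls and of some sensory neurons, was at 146, 122, 214 and 75.4 CPM against 63.2, 13.8, 24.4 and 9.48 (adjusted p = 0.0599). *Myl9*, the smooth muscle myosin light chain, went the other way, at 111 to 385 CPM in T10-L1 DRG and 122 to 792 in TG (log2 difference -1.5, SE 0.60, adjusted p = 0.174). The median log2 difference of the 56, *Cnn1* included, was 1.33, against 0.03 for all genes.

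The 10 genes themselves differed between T10-L1 DRG and TG by 2.02 (SE 0.50) for *Rgs5*, 2.17 (SE 0.94) for *Cd248* and 3.58 (SE 1.56) for *Myh11* on the log2 scale. *Cldn5* was at -1.11 (SE 0.88), and the other 6 were at 0.36 to 1.37. The libraries of *Rgs5*, *Cd248* and *Kdr* did not overlap (10.3% of all genes, T10-L1 DRG higher).

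L3-L5 DRG against TG had 0 of 51 further genes past the adjusted threshold by edgeR (0.0% of all genes). The 10 genes differed by -0.89 (*Cldn5*) to 2.31 (*Myh11*), with SEs of 0.47 to 2.0. Of the further genes 4 were higher and 2 lower without adjustment (18.2% of all genes), and DESeq2 called 2 higher and 1 lower (11.3%). *Mcam*, *Adgrf5* and *Aqp1* were wholly higher in L3-L5 DRG (8.85% of all genes) and *Ramp2* wholly lower (2.88%). *Aqp1* was at 112, 424, 408 and 116 CPM in L3-L5 DRG, highest in libraries 2 and 3, which had 0 and 38 reads on *Kdr* (log2 difference 2.99, SE 0.69, adjusted p = 0.0859). Without TG library 1, 3 further genes were called.

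Between the DRG groups *Cd248* had the largest difference of the 10 genes, 2.34 higher in T10-L1 DRG (SE 1.37), and the others were at -0.19 (*Cldn5*) to 1.30 (*Myh11*). Of 58 further genes 0 were called by edgeR (0.0% of all genes) and by DESeq2 (0.5%), and *Vtn* and *Cnn1* had an unadjusted p under 0.05 (6.07%), both higher in T10-L1 DRG. *Cnn1*, smooth muscle calponin, had 228, 82, 30 and 70 reads in T10-L1 DRG and 0, 0, 0 and 11 in L3-L5 DRG, without overlap (1.19% of all genes). *Vtn*, vitronectin, was at 49.0 to 132 CPM and 5.56 to 69.0. The median log2 difference was 0.38, against -0.03 for all genes.

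**Figure D4:**
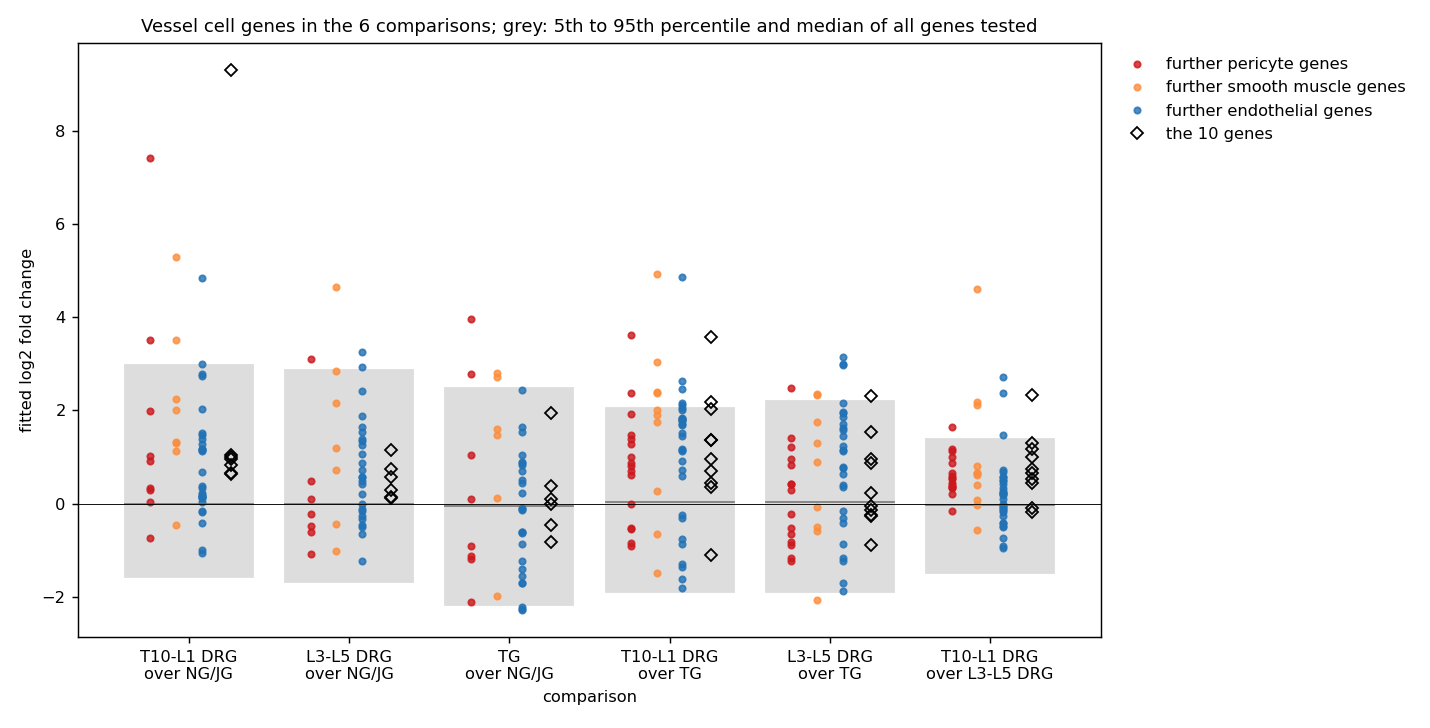
Fitted log2 fold change of the further pericyte, smooth muscle and endothelial genes and of the 10 genes in the 6 comparisons of ganglia, first ganglion over second; genes left out by the filter or with a group within the floor are not drawn. Grey boxes span the 5th to 95th percentile of all genes tested. The further genes have a median of 1.33 in T10-L1 DRG over TG and 0.1 in TG over NG/JG.

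The remaining genes with high levels per length showed how unlike the vessel genes were. *Myl9* was at 792, 516 and 629 CPM in TG libraries 2 to 4, above all other libraries, and at 6.10 CPM in NG/JG library 4. *Tpm2*, a tropomyosin of smooth muscle, was at 0.341 to 24.2 CPM in NG/JG and 6.41 to 98.7 in T10-L1 DRG. *Ly6c1*, an endothelial surface protein of the brain and nerve that some leukocytes carry, had its highest mean in TG (107 ± 74.7 CPM) and its lowest in NG/JG (24.2 ± 29.4). *Steap4*, a metalloreductase of pericytes, was at 33.3 to 185 CPM in T10-L1 DRG and 11.1 to 35.7 in TG. *Cdh5*, the cadherin of endothelial junctions and a defining endothelial gene outside the 10, was at 0 to 8.43 CPM in TG, 0 to 14.3 in NG/JG, 0 to 38.6 in L3-L5 DRG and, with no library at 0, 6.00 to 46.9 in T10-L1 DRG.

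Of the 23 ligands and receptors that link endothelium and mural cells, 17, 14, 14, 18, 16 and 21 were tested in the 6 comparisons in the order above and 0 passed the adjusted p by edgeR. *Notch3*, *Flt1*, *Tek* and *Tie1* are also among the further genes. Without adjustment 1 was higher and 0 lower in T10-L1 DRG over NG/JG, 0 and 1 in L3-L5 DRG over NG/JG, 0 and 0 in TG over NG/JG, 1 and 1 in T10-L1 DRG over TG and in L3-L5 DRG over TG, and 1 and 0 in T10-L1 DRG over L3-L5 DRG. Over all genes 5.91%, 6.04%, 10%, 21.6%, 18.2% and 6.07% passed without adjustment. DESeq2 called 4, 3, 2, 3, 2 and 0 of the ligands and receptors, and 6.3%, 5.67%, 6.39%, 15.4%, 11.3% and 0.5% of all genes.

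Among the ligands, *Pdgfb*, whose product recruits mural cells, had 0 reads in all NG/JG libraries, and, against a floor of 3 counts per NG/JG library, TG had a mean CPM at least 15.3-fold higher and T10-L1 DRG one at least 21.6-fold higher. *Pdgfa* was at 99.2 ± 42.9 CPM in TG and at 38.6 to 49.6 on average in the others. *Pdgfc* was at 31.8 ± 17.0 in T10-L1 DRG and 5.75 ± 8.12 in L3-L5 DRG. *Vegfa* was at 2.28 to 29.9 CPM and *Pgf*, a VEGF family ligand, at 57.1 ± 22.3 in NG/JG and 17.8 to 20.4 on average in the others. The T10-L1 DRG libraries lay wholly below those of NG/JG for *Vegfa* (1.21% of all genes) and wholly above for *Dll4* and *Notch3* (6.79%). *Vegfb* was at 30.8 ± 21.4 CPM in TG and 6.02 to 9.79 elsewhere. *Angpt2*, the TIE2 ligand that loosens vessel walls, was at 221 ± 122 CPM in NG/JG and 91.0 to 112 elsewhere. *Jag1*, a Notch ligand, was at 62.95 to 74.5 CPM on average in the 4 ganglia.

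Among the receptors, *Nrp1*, the VEGF and semaphorin co-receptor, had 132 to 171 CPM in the L3-L5 DRG libraries. The T10-L1 DRG libraries had 82.9 to 322 CPM, so both lay above TG (52.3 to 81.6). *Nrp2* was at 248 ± 75.2 CPM in T10-L1 DRG and 102 to 185 on average elsewhere, and *Notch1* at 205 to 325. *Flt1*, the VEGF decoy receptor, was at 23.1 to 121 CPM in T10-L1 DRG and 0.127 to 18.3 in TG, and *Tek*, the angiopoietin receptor TIE2, at 10.1 to 38.5 and 0 to 8.26. *Tie1* was above the floor in all T10-L1 DRG libraries (14.7 to 55.6 CPM) and ran from 0 to 112 in NG/JG, and *Flt4* ran from 0 to 26.7 in T10-L1 DRG, with its highest value, 36.3, in L3-L5 DRG library 4. *Pdgfra*, the PDGF receptor of fibroblasts, was at 36.4 ± 48.5 CPM in T10-L1 DRG.

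Near relatives of the 10 genes could share reads with them, and 13 were looked at. *Actg2*, the smooth muscle gamma actin, was at 0 in 9 of 16 libraries and at most 17.7 CPM, and *Actc1* did not exceed 0.211 CPM. *Acta1* was at 0.207 to 11.9 CPM, with its highest mean in NG/JG, where *Acta2* had 0 to 7 reads. *Actb*, the cytoplasmic actin, was at 4216 to 12980 CPM and *Actg1* at 11.6 to 34.3 CPM. *Rgs4*, a neighbour of *Rgs5* on chromosome 1 that sensory neurons express, was at 80.1 to 2334 CPM, with 372 ± 226 in NG/JG. *Tagln2* was at 134 to 725 CPM and *Tagln3*, the neuronal form, at 17.9 to 356. The non-muscle myosins *Myh9* and *Myh10* were at 1.86 to 66.0 and 0 to 73.5 CPM.

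Of 14265 genes with a mean of at least 1 CPM, the 8 whose CPM ran most like the mean log2(CPM + 1) of the 7 mural genes over the 16 libraries had Spearman rho of 0.897 to 0.939, against a median of 0.153 over all genes. They were *Aspn*, *Col8a2*, *Ndufa4l2*, *Gpr30*, *Rbpms2*, *Mtap7d3*, *Ccdc114* and *Spin4*. *Aspn*, a small proteoglycan, had mean levels of 28.8 CPM in T10-L1 DRG, 10.3 in L3-L5 DRG, 6.39 in TG and 0.0348 in NG/JG. For the 3 endothelial genes the 8 were *Clp1*, *Lrg1*, *Col4a5*, *Adcy4*, *Agmo*, *Tpbg*, *Eltd1* and *Ahctf1*, with rho of 0.89 to 0.935 against a median of 0.149. Only *Ndufa4l2* and *Eltd1* (*Adgrl4*) of these 16 were among the further vessel genes. By Pearson r, 5 of each 8 were again among the 8 most alike.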

How the data were processed

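RNA-seq counts of TdTomato-positive cells sorted from 4 kinds of ganglion were used, 4 libraries each. The authors made oligo dT SMART-seq2 cDNA, sequenced 50 bp single reads, aligned them to mm9 with TopHat2, and ran HTSeq-count. Each deposited table holds unscaled counts for 22609 gene symbols. The gene annotation, strand setting and tool versions are not given in the sources used here.

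CPM scaled counts by library totals over genes, and RPKM used exon lengths of GENCODE mouse release 1 on NCBIM37, the assembly of mm9. The deepest library had 13333318 reads on genes and the shallowest 4735624, and the floor was 3 counts. The 8 libraries of each pair of ganglia were fitted with edgeR 4.0.16 under R 4.3.3 (TMM factors, filterByExpr, quasi-likelihood test, Benjamini-Hochberg adjustment, threshold 0.05). An SE is the log2 difference divided by the root of the F value. DESeq2 1.42.0, RLE factors, no filter, all 16 libraries in one fit, the replicate number as a block and each library left out were the alternatives, with CPM on TMM factors for levels and Pearson r for likeness. The scripts were tested on simulated data. Other tables used Python 3.11.15.

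The 10 genes and all lists were chosen with earlier results of these data known. The genes named are the 10, the 3 of each further list with the highest mean RPKM, further genes past the adjusted threshold, signalling genes with a mean of at least 5 CPM, the relatives listed, and the 8 genes most like each set. Others were named after their values were seen. Of the listed genes 8 were counted under an older symbol.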

Additional observations from a re-analysis of the deposited data

Results flagged for a closer look

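In groups of 4 libraries, the CPM of a single library lay far from the other 3, by Dixon's ratio of gap to range, for 8 of 37 gene and ganglion combinations of the 10 genes. The cutoff gives about 1 in 20 for independent values with a normal spread. CPM are skewed and the combinations share libraries, so that rate is no measure of chance here. L3-L5 DRG library 4 accounted for 4 of them, with 485 CPM for *Acta2*, 132 for *Myh11*, 159 for *Pecam1* and 516 for *Cldn5*. *Pecam1* also stood out in NG/JG library 1 (116 CPM) and in TG library 1 (52.4 CPM). TG library 1 was far below the others for *Cd248* (0.254 CPM), and TG library 3 for *Pdgfrb* (36.1 CPM, in a group whose SD was 3.60).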

How the results depend on the processing

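The comparisons are taken here in one order: T10-L1 DRG over NG/JG, L3-L5 DRG over NG/JG, TG over NG/JG, T10-L1 DRG over TG, L3-L5 DRG over TG, and T10-L1 DRG over L3-L5 DRG. Over all genes edgeR called 4, 0, 6, 758, 0 and 0. DESeq2 called 913, 819, 856, 2199, 1612 and 78. All 16 libraries in one fit gave 54, 83, 484, 238, 206 and 0, and no filter on low counts gave 9, 2, 56, 427, 39 and 0. Of the further vessel genes edgeR called 0, 0, 0, 2, 0 and 0, DESeq2 13, 6, 9, 8, 3 and 0, the fit of all libraries 1, 1, 2, 0, 0 and 0, and no filter 1, 0, 0, 1, 0 and 0. The causes were not tested.

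Leaving out each library in turn gave 1 to 5, 0 to 2, 1 to 325, 0 to 3583, 0 to 2038 and 0 to 0 calls over all genes. Among the further vessel genes it gave 0 to 13 in T10-L1 DRG over TG, 0 to 3 in L3-L5 DRG over TG, and 0 to 0 in the other 4. The highest values, 325, 3583, 2038, 13 and 3, were all without TG library 1, and without NG/JG library 1 TG over NG/JG had 31 calls.

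Deviations of same-numbered libraries from their group means correlated at -0.118 to 0.178. Differently numbered libraries were not compared, so this does not settle whether replicate numbers pair the libraries. With the replicate block the calls over all genes were 0 in T10-L1 DRG over NG/JG, 1 in TG over NG/JG and 0 in T10-L1 DRG over TG, and 0 of the further vessel genes were called in T10-L1 DRG over TG.

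Of 49 fitted differences of the 10 genes 29 kept their sign under all 13 alternatives, and of the 15 over 1 in size 13 did. The exceptions were *Cldn5* in L3-L5 DRG over NG/JG (-1.17 to 1.51) and *Myh11* in L3-L5 DRG over TG (-2.01 to 3.13). With 4 libraries a ganglion and counts near 0, differences of these genes rest on few libraries.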
